A study of Mus musculus with 11 samples.

Results

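The clustered protocadherins are the 58 genes on mouse chromosome 18 whose symbols start with Pcdha, Pcdhb or Pcdhg, taken by symbol from a RefSeq gene table of 49555 genes on the mm10 assembly. The alpha cluster had 14 of them, the beta cluster 22 and the gamma cluster 22. In all, 57 were annotated as coding and 1, Pcdhgb8, as a transcribed pseudogene. The region from the start of Pcdha1 to the end of the gamma cluster ran from 36930285 to 37841873, a length of 912 kb.

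Binding of Smchd1, a chromatin protein of the SMC family, was mapped at these genes by ChIP-seq, that is chromatin immunoprecipitation with sequencing of the recovered DNA. The cells were lines of neural stem cells that came from C57BL/6 embryos at embryonic day 14.5 and had been grown for up to 20 passages. Knock-in cells were homozygous for an allele that fuses GFP to the endogenous Smchd1 protein (Smchd1 GFP/GFP), and the pull-down used an antibody to GFP. Wild-type cells (Smchd1+/+) went through the same pull-down without the tag, and whole cell extract gave the input. Long sonication, for 30 min, was used on female cells alone, with 2 libraries for each of the 3 kinds of sample. Digestion with micrococcal nuclease (MNase) was used on both sexes, with 1 library per sex for knock-in and for wild-type cells and a single input library, from female cells. The labels do not say how many embryos stand behind a line.

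Each experiment was given as 1 list of peak positions for all of its libraries, with 2840 peaks for MNase and 2196 for sonication. A peak therefore had a start, an end and a width, but no value per library, and the read depth and the spread between replicates were unknown. No knock-in library could be set against a wild-type library at any gene, and no test was run. The counts below are descriptions, read against the same counts over all genes or all windows of the same length. Intervals cover counting error only and treat peaks or genes as independent, which neighbouring peaks and genes with overlapping spans are not. The lists hold no expression, so the label neural stem cell could not be checked against marker transcripts.

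Clustered protocadherins are cell surface proteins of the cadherin superfamily, and the combination of them that a neuron makes gives it an identity by which its own branches recognise each other. In the alpha and gamma clusters, each gene has its own promoter and a large first exon that codes for the extracellular part, and this exon is joined to a few constant exons shared by the whole cluster. Beta genes consist of a single coding exon and share none. The choice of promoter depends on CTCF and cohesin, which bring a promoter to distant enhancers, and on DNA methylation. Smchd1 is known from mouse mutants as a repressor of clustered protocadherin genes. The last genes of the alpha and gamma clusters, named with a c (Pcdhac1, Pcdhac2, Pcdhgc3, Pcdhgc4 and Pcdhgc5), belong to a separate sequence type and are active in neurons more uniformly than the others.

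The MNase list had 10 peaks in the region, of which 7 lay in the alpha cluster, 2 between the alpha and beta clusters and 1 in the beta cluster. The gamma cluster and the stretch between the beta and gamma clusters had 0. The sonication list had 0 peaks anywhere in the region. All 10 MNase peaks thus lay in the first 365 kb of the 912 kb, as the map of the region shows. No pair of peaks, 1 from each list, overlapped: the closest sonication peak was 593 kb from the nearest of the 10.

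**Figure D1:**
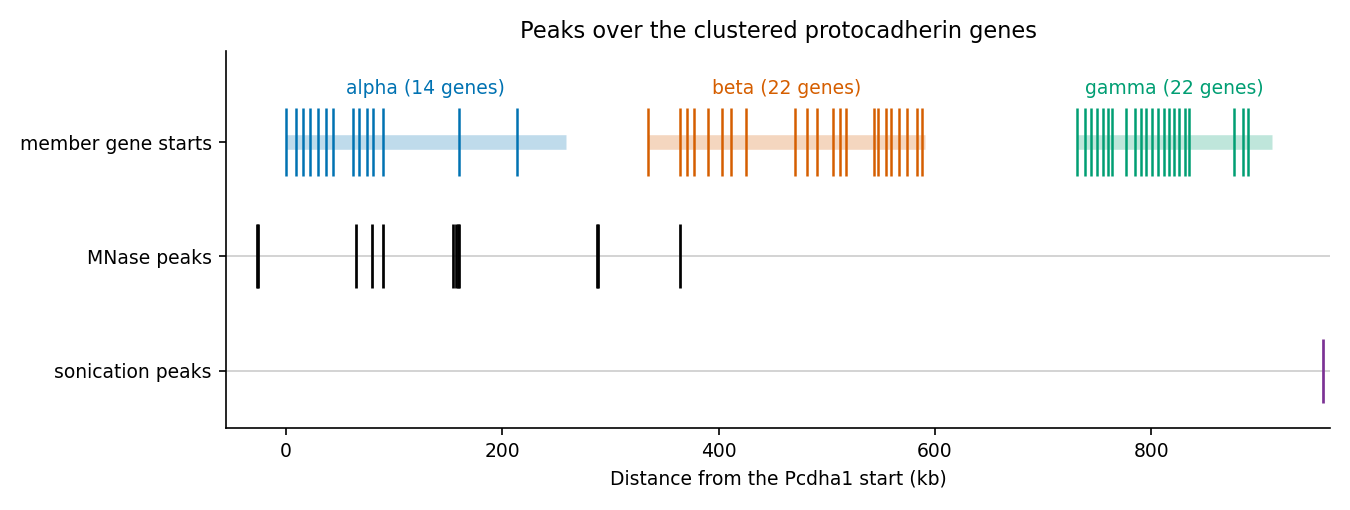
Position of the 58 gene starts (top row, coloured by cluster, pale bars show the cluster spans), MNase peaks (middle row) and sonication peaks (bottom row) within 50 kb of the region, as distance in kb from the start of Pcdha1. Of the 12 MNase peaks shown, 2 lie upstream of Pcdha1, and the others sit at the alpha cluster, between alpha and beta and at the second beta gene, while the 1 sonication peak lies beyond the gamma cluster.

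Counted by genes, 14 of 58 members (24.1%, 95% Wilson interval 15% to 36.5%) had an MNase peak within 5 kb of their span, where 3.72% of all genes and 5.29% of coding genes did. These members are not separate sites. Alpha genes are annotated from their own first exon to the constant exons, so their spans of 44.0 to 257 kb overlap and 1 peak can count for many genes. Taken as distinct peaks, 8 lay within 5 kb of a member, 7 of them at alpha genes and 1 at a beta gene. Within 50 kb there were 12 distinct peaks and 21 members (36.2%) with a peak, against 10.4% of all genes. Inside the spans alone, the same number of members, 14, held a peak, against 2.55% of all genes.

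By cluster, 13 of 14 alpha members (92.9%), 1 of 22 beta members (4.55%) and 0 of 22 gamma members had an MNase peak within 5 kb. Span length differs between the clusters, so each was set beside coding genes with spans in the same range. Of coding genes with spans in the range of the alpha members (44.0 to 257 kb), 8.67% had a peak within 5 kb. This set includes the alpha members. The 12 numbered alpha genes span 167 to 257 kb, so the set also takes in genes shorter than most alpha members. For the range of the beta members (2.34 to 5.27 kb) the share was 4.27%, and for that of the gamma members (22.3 to 180 kb) it was 5.69%. The beta share was thus close to its background, and the alpha count was carried by peaks that its members share.

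Gene starts separate the members better than spans, because each alpha and gamma gene starts at its own promoter. An MNase peak lay within 5 kb of the start of 7 of 58 members (12.1%, 95% Wilson interval 5.97% to 22.9%), against 2.59% of the genes in a RefSeq promoter table. Of these 7, Pcdha8, Pcdha9, Pcdha10, Pcdha11, Pcdha12 and Pcdhac1 belong to the alpha cluster and Pcdhb2 to the beta cluster. They are not 7 separate sites: 1 peak counted for both Pcdha8 and Pcdha9, and 1 for both Pcdha10 and Pcdha11. The share of 12.1% and its interval do not allow for this. Within 1 kb of the start, 4 members had a peak (6.90%), Pcdha11, Pcdha12, Pcdhac1 and Pcdhb2, against 1.51% of genes in the promoter table. All of these genes encode cell surface protocadherins with their own extracellular part.

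The first 7 alpha genes, Pcdha1 to Pcdha7, had no peak within 5 kb of their starts. Their nearest MNase peaks were 21.1 to 42.3 kb away. Pcdha1, the first gene of the cluster, spans 36930285 to 37187657, and its start was 25.3 kb from the nearest peak. That peak, of 900 bp from 36904051 to 36904950, lay upstream of the whole region, and another of 600 bp, from 36903301 to 36903900, lay 150 bp before it. These 2 peaks overlapped no gene of the table. Apart from the members and the long gene models that run through the clusters, the nearest coding gene, Zmat2, was 104 kb away. Of those models, Gm37013 starts nearer, at 36952648.

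The middle alpha genes had 3 separate peaks near their starts. A peak of 450 bp, from 36994951 to 36995400, lay between Pcdha8 and Pcdha9. Its edges were 2484 bp from the start of Pcdha8 and 2480 bp from that of Pcdha9, so it could be assigned to neither. A peak of 450 bp, from 37009801 to 37010250, ended 608 bp before the start of Pcdha11 at 37010858 and lay 4481 bp after that of Pcdha10. A peak of 300 bp, from 37020151 to 37020450, overlapped the start of Pcdha12 at 37020230. The 5 genes from Pcdha8 to Pcdha12 thus all started within 4.48 kb of a peak, unlike the 7 before them.

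Pcdhac1, the first of the c-type genes, had the group with the most peaks. There were 4 within 6.00 kb, from 37084201 to 37090200, all at or upstream of its start at 37090136. Their widths were 300, 450, 300 and 450 bp in chromosomal order. The last of them, from 37089751 to 37090200, overlapped the start of Pcdhac1. The others ended 986, 2336 and 5636 bp before it. When peaks at most 10 kb apart were joined, the MNase list became 2169 sites, of which 60 (2.77%) held 4 or more peaks, and 5 of these 60 lay in a Hox cluster. The other c-type genes had no such group: Pcdhac2, from 37143678 to 37187663, had no peak within 5 kb of its span, and its start was 53.5 kb from the nearest.

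**Figure D2:**
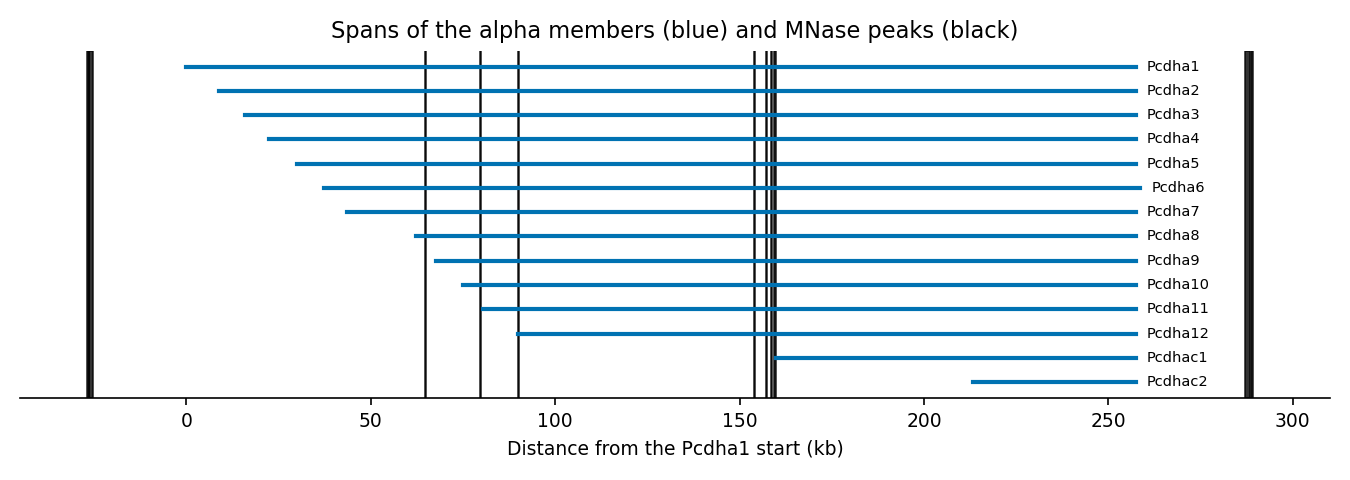
Annotated spans of the 14 alpha members (blue lines, named at their right end) and MNase peaks (black vertical lines; the narrowest are drawn a little wider than to scale), as distance in kb from the start of Pcdha1. The 4 peaks at Pcdhac1 cross the spans of all 12 numbered alpha genes, and none crosses the span of Pcdhac2.

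The number of peaks within a span followed from these positions. Pcdha1 to Pcdha8 each held all 7 alpha peaks, Pcdha9 and Pcdha10 held 6, and Pcdha11 and Pcdha12 held 5. Pcdhac1 held 1 and Pcdhac2 held 0. The alpha members therefore differ in span counts only through where they start, and no peak lay in the last part of the cluster, which holds the shared constant exons.

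Between the alpha and beta clusters, the widest peak of the region measured 1200 bp, from 37217401 to 37218600. It started 28.5 kb beyond the end of the alpha cluster and ended 46.4 kb before Pcdhb1. A second peak of 450 bp, from 37218901 to 37219350, followed after 300 bp. Neither overlapped a member span. Both lay inside 3 gene models, Gm37013, Gm38666 and Gm38667, which run from an alpha start to the gamma end over 868 to 889 kb and whose listed synonyms name them as forms of Pcdha4, Pcdha6 and Pcdha7. The enhancer HS5-1 of the alpha genes is known to lie downstream of their constant exons. Its coordinates were not used here, and an overlap with these peaks was not tested.

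In the beta cluster, the only peak was at Pcdhb2, the second gene. It measured 450 bp, from 37294651 to 37295100, and overlapped the gene's start at 37294840. Pcdhb1 was 29.7 kb from its nearest peak and Pcdhb3 5.70 kb. Distances then rose along the cluster to 223 kb at Pcdhb22, since no further peak followed. Over the 21 beta genes other than Pcdhb2, the median distance from start to peak was 141 kb.

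The gamma cluster was without a peak in either list. It runs from the start of Pcdhga1 at 37661775 to 37841873 and holds 12 Pcdhga genes, 7 Pcdhgb genes and 3 Pcdhgc genes. Its members were 367 to 524 kb from the nearest MNase peak, with a median of 433 kb, and Pcdhgc5 was the farthest. After the peak at Pcdhb2 the next MNase peak began at 38600851, leaving 1.31 Mb empty. Empty stretches of this length are common: 22% of 2809 gaps between neighbouring autosomal MNase peaks were as long or longer. Of autosomal windows as long as the gamma cluster, 85.7% had no MNase peak, so its count of 0 is that of most windows.

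**Figure D3:**
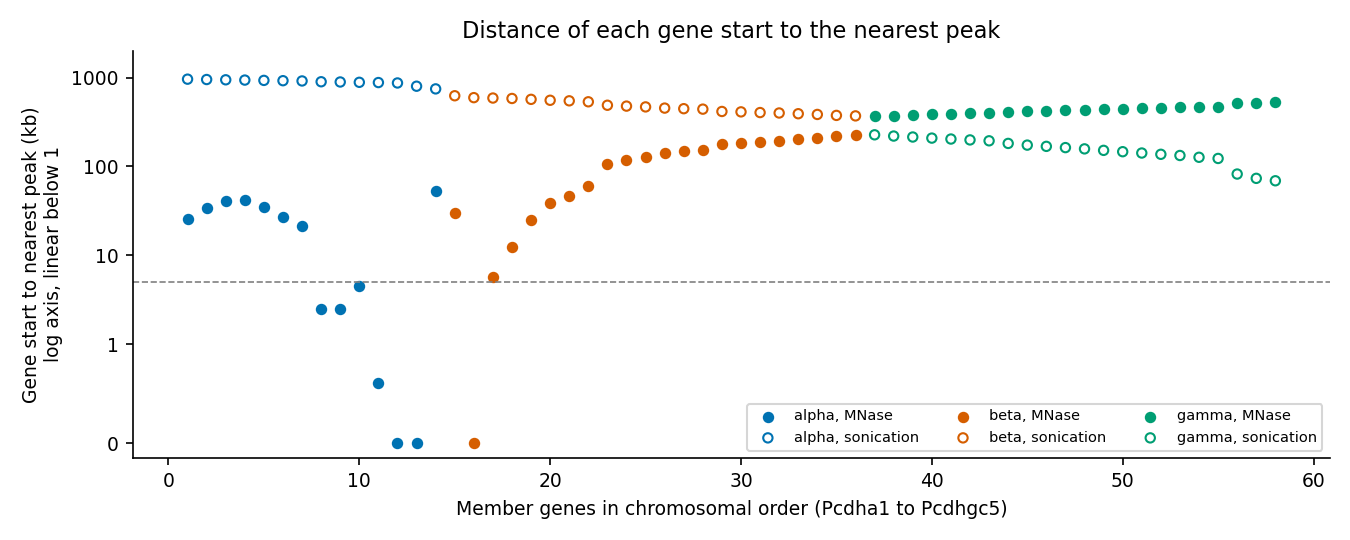
Distance in kb from the start of each of the 58 members, in chromosomal order, to the nearest MNase peak (filled) and sonication peak (open), on a log axis that is linear below 1 kb; the dashed line marks 5 kb. For MNase, 6 alpha genes and 1 beta gene lie under the line, and all gamma genes lie above 300 kb.

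Relative to gene starts, 3 of the 10 MNase peaks in the region overlapped a member start (Pcdha12, Pcdhac1 and Pcdhb2). The other 7 lay upstream of the nearest start and 0 downstream, where for the peak between Pcdha8 and Pcdha9 the choice rests on a difference of a few bases. In all, 7 of the 10 came within 5 kb of a start and 8 within 6 kb, and the median distance was 1661 bp. The remaining peaks were the pair between alpha and beta. Of the 8, 4 were the single group at Pcdhac1. Many neighbouring starts in the alpha and beta clusters lie less than 10 kb apart, so closeness to a start is common there for any position. The share of all positions, or of all MNase peaks, this close to a start was not computed.

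Peaks in the region were narrow. Of the 10, 3 had the smallest width in the list, 300 bp, 6 had 450 bp and 1 had 1200 bp. Their median of 450 bp equalled that of the whole MNase list, in which 38.2% of peaks measured 300 bp. Width moves in steps of 150 bp in these lists, so finer differences cannot be seen.

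For the region as a whole, the MNase density was 11.0 peaks per Mb (95% exact Poisson interval 5.26 to 20.2), against 1.10 on chromosome 18 and 1.18 over the autosomes. Of 2627 autosomal windows of the same length, 18 (0.685%) held 10 or more MNase peaks, and 5 of those 18 overlapped a Hox cluster. The region was not left out of the tiling, so a window that takes in its own 10 peaks is among the 18. The median window held 1, and 48.4% held 0. The alpha cluster had 27.1 peaks per Mb (10.9 to 55.8). Among windows as long as it, 0.312% held 7 or more, a window over its own peaks included. The stretch between alpha and beta had a similar 26.3 per Mb (3.18 to 94.9). The beta cluster had 3.90 per Mb (0.0987 to 21.7), and 19.3% of windows of its length held 1 or more. Within the region, the intervals for alpha, beta and gamma (0 to 20.5) all overlapped one another, that of alpha with that of gamma included.

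**Figure D4:**
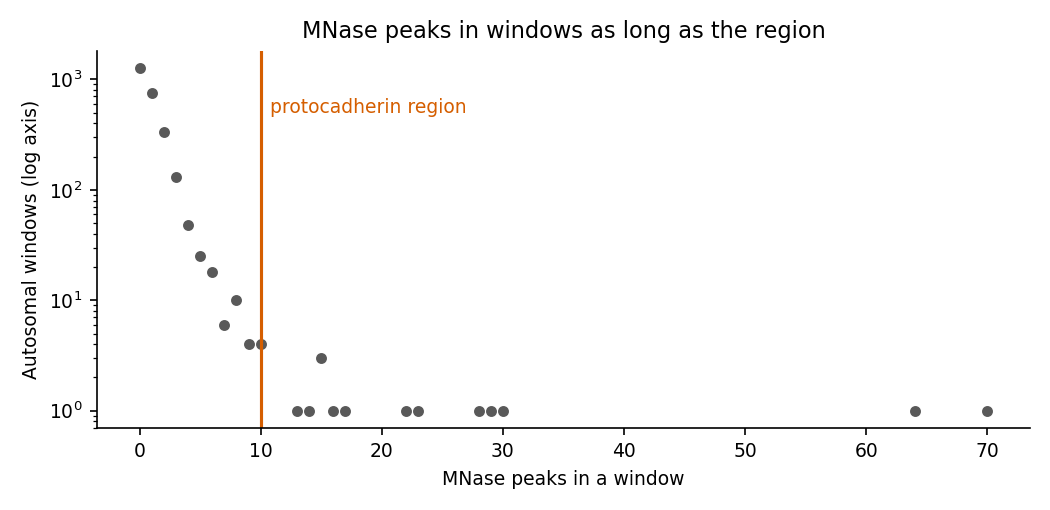
Number of autosomal windows (log axis) by the count of MNase peaks they hold, for 2627 windows as long as the protocadherin region; the vertical line marks the 10 peaks of the region. Most windows hold 0 or 1 peak, and 18 hold 10 or more, among them a window that takes in the region's own peaks.

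Other gene clusters with peaks in the MNase list gave a scale for these values. The 4 Hox clusters, tandem arrays of homeobox genes, had 268 to 423 MNase peaks per Mb, and peaks covered 31.5% to 82.0% of their length. In the alpha cluster, peaks covered 1.04% of the length, and in the beta cluster 0.175%. The imprinted Snrpn region, over 2438 kb from Snrpn to Mkrn3, had 6.97 peaks per Mb (4.06 to 11.2), and 0.425% of it was covered. The interval of the alpha cluster lay below those of all 4 Hox clusters and overlapped that of the Snrpn region.

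**Figure D5:**
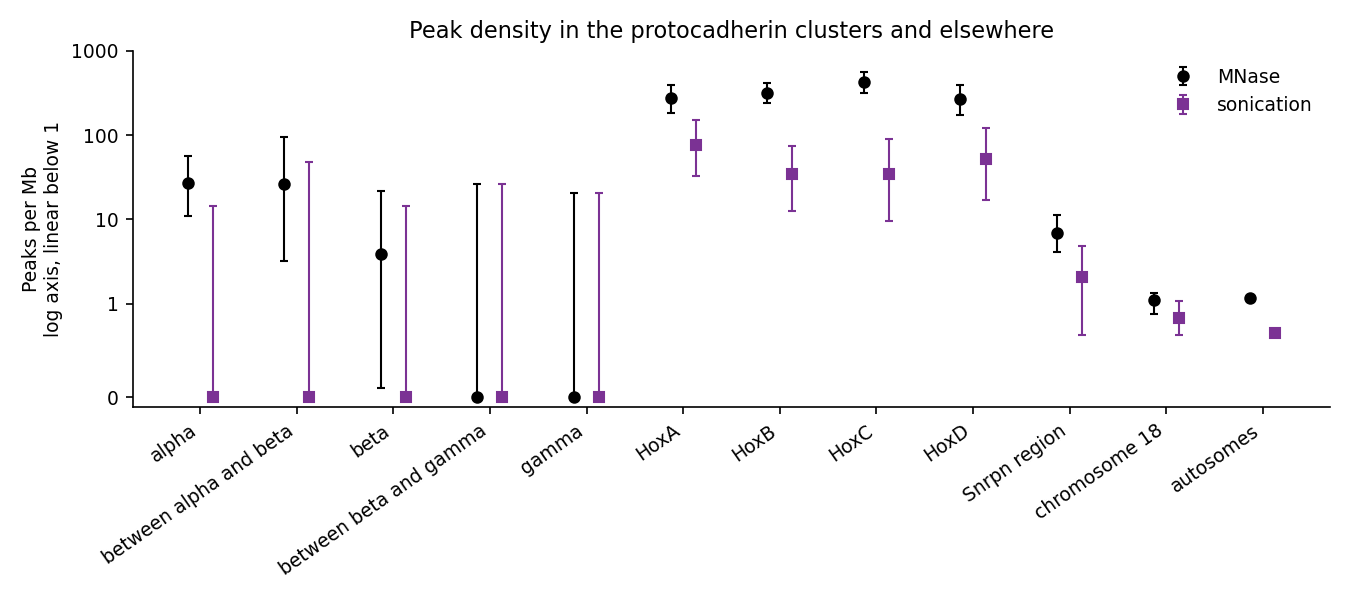
Peaks per Mb in the MNase list (circles) and the sonication list (squares) with 95% exact Poisson intervals, on a log axis that is linear below 1. The protocadherin stretches are at the left; for MNase, alpha is at 27.1, beta at 3.90 and gamma at 0, while the Hox clusters are at 268 to 423.

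In the sonication list, 0 of 58 members had a peak within 5 kb (95% Wilson interval 0% to 6.21%), where 2.25% of all genes and 3.39% of coding genes did. Within the spans alone, 1.68% of all genes had one. These shares include genes on the sex chromosomes, and 1646 of the 2196 sonication peaks were autosomal. A share over autosomal genes alone was not computed. No member start had a peak within 1 kb or 5 kb, against 0.137% and 0.574% of the genes in the promoter table. These backgrounds are low, and 56.5% of autosomal windows of the region's length had no sonication peak, so the absence is that of most windows. The Hox clusters and the Snrpn region had 34.5 to 75.8 and 2.05 sonication peaks per Mb. None of the 11 broad domains that were also deposited lay on chromosome 18.

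The only sonication peak within 50 kb of a member was 300 bp wide, from 37888501 to 37888800. It lay in Diaph1, a formin gene that regulates actin and whose span lies just beyond the gamma cluster. The gamma genes end close together, with Pcdhgb8 ending at 37840489 and the cluster at 37841873. This 1 peak, 46.6 kb beyond the end of the cluster and 48.0 kb from Pcdhgb8, therefore put all 22 gamma members (37.9% of the 58) within 50 kb of a sonication peak, against 7.36% of all genes. It stands for 1 site and not for 22. On the other side, the last sonication peak before the region ended at 33351750, so that 4.54 Mb without a sonication peak held all 3 clusters. By number, gaps as long or longer made up 5.96% of 1627 autosomal gaps in that list. Long gaps cover a larger share of length than of number, and that larger share was not computed.

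Coding genes between or within 500 kb of the clusters had an MNase peak within 5 kb at 4 of 33 (12.1%), where 5.29% of all coding genes did. Of these 4, 3 were the long gene models that run through the clusters. Each of them holds the region's own 10 MNase peaks, so they add no further site and the share of 12.1% rests mostly on them. The other was Zmat2, with a peak of 450 bp from 36802201 to 36802650. Slc25a2, a mitochondrial carrier gene, and Taf7, a gene of the basal transcription machinery, lie between beta and gamma and had none. In the sonication list, 1 of 33 had a peak, Diaph1, a share of 3.03% that is close to the 3.39% of all coding genes.

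Non-clustered protocadherins, which are single genes of the same superfamily at other sites, had MNase peaks within 5 kb at 6 of 12 members and sonication peaks at 4 of 12. Pcdh7 had 6 MNase peaks and Pcdh17 had 5, the widest of 5100 bp. Pcdh9, Pcdh10 and Pcdh15 had 2 each and Pcdh8 had 1 of 1050 bp. Among coding genes these shares were 5.29% and 3.39%. Several of the 12 are long, up to 1554 kb for Pcdh15, and the counts were not adjusted for length. The 4 with a sonication peak were Pcdh8, Pcdh9, and the X-linked Pcdh11x and Pcdh19, which had 1 peak of 300 bp each. Only 1646 of the 2196 sonication peaks were autosomal, against 2828 of the 2840 MNase peaks. The share of 3.39% covers all chromosomes and is not a background for X-linked genes. Pcdh8 and Pcdh9 were thus in both lists, unlike any clustered member. Pcdh1 and Pcdh12, which lie on chromosome 18 beyond the gamma cluster, had 0 in both.

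Among 17 genes whose products are known to act on the clusters or with Smchd1, 2 had an MNase peak within 5 kb (11.8%) and 0 had a sonication peak, where 5.29% and 3.39% of coding genes did. With so few genes, these counts and those of the next lists are near their background. The 2 were Lrif1, which encodes a partner protein of Smchd1, with 2 peaks of up to 2250 bp, and Stag1, a cohesin subunit gene, with 1 of 750 bp. Smchd1 itself and Ctcf had none. Among 14 genes of signalling below protocadherins, Abi2, a gene of the WAVE actin complex, had 1 MNase peak and Ptk2b, which encodes a relative of focal adhesion kinase, 1 sonication peak, which is 7.14% of the genes in each list. Of 10 neural stem cell marker genes, 1, Sox2, had MNase peaks within 5 kb, and 0 had a sonication peak.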

How the data were processed

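Peaks from GFP pull-downs in neural stem cells were analysed for 11 libraries, 5 cut with MNase and 6 sonicated. The authors deposited 1 peak list per experiment, which holds positions in bp on mm10. Per the submitters' processing notes, bcl2fastq, Bowtie 0.12.9 and MACS2 were used, without a stated role; per the file headers and cells, the MNase peaks came from SeqMonk. No source states how wild-type and input libraries entered the lists. Peak starts fall on a grid of 150 bp and the value column is empty, so peak height and depth per library were unknown.

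Peaks were intersected with gene spans from RefSeq (GRCm38.p6, the assembly of mm10) in Python 3.11.15 with pandas 2.3.3 and scipy 1.17.1. An overlap of 1 bp counted. The first 3 Mb of each chromosome and 388 gene records in it were left out. The table has no strand; member starts are their lower coordinate, since the clusters are transcribed in that direction. Other start sites came from a promoter table of 27007 genes, which matched 0 members. Windows were tiled over the autosomes, the protocadherin region included. Shares over all genes and over coding genes include the members. No sequence of the members was used. Overlap counting was tested on simulated peaks. The members and gene lists were chosen with earlier results of these data known. Named were all peaks within 50 kb of a member, members with a peak, cluster ends and listed genes with a peak; the other genes without a peak were named after their values were seen. Alternatives were peak width, overlap rule, joining of peaks and flank.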

Additional observations from a re-analysis of the deposited data

How the results depend on the processing

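Of 30 recomputed values, 22 stayed close to the reported one (counts within 1.5 times), and the other 8 were as follows. Joining peaks at most 10 kb apart turned the 10 MNase peaks of the region into 5 sites and the 8 inside the clusters into 4. With only peaks wider than 300 bp, the clusters held 5 peaks, their covered share went from 0.453% to 0.324%, and the median distance to a member start went from 1661 to 2336 bp. Measured from gene starts, 7 members in place of 14 had an MNase peak within 5 kb. With 50 kb on each side, the region gained 1 sonication peak, and 22 members in place of 0 had a sonication peak within 50 kb, through that peak. No paired analysis was possible because each list pools its libraries, and for the same reason no replicate could be left out. With depth unknown, a gene without a peak is one where none was called.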
